A study of Mus musculus with 32 samples.

Results

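Forelimb and hindlimb buds form from the same kind of mesenchyme but become different limbs, and the libraries described here ask which open chromatin separated the 2 limbs among cells marked by an Etv2 reporter. They were the 6 ATAC-seq libraries of the series labelled FL_GFP_pos (n = 3, forelimb, called FL EYFP+ here) and HL_GFP_pos (n = 3, hindlimb, HL EYFP+), chosen by these labels out of 32 libraries in all. ATAC-seq marks accessible DNA by the insertion of a transposase, and each deposited list gives the summits (the points of highest signal) of the accessible regions in 1 library. All 6 libraries came from mouse embryos at E10.5 carrying the Etv2-EYFP transgene, in which a fragment of the Etv2 promoter drives the yellow fluorescent protein EYFP, with no other allele or agent named. Live cells were sorted as positive for EYFP and negative for the blood and endothelial surface proteins CD31, Tie2 and CD45. EYFP outlasts the transcript, so the sort takes cells that had recently used the promoter and not only those making Etv2. By the study's methods, limb buds were pooled or processed separately, and embryo sex was not determined. Of each limb, 1 library carried each of the numbers 748, 753 and 758, called pools here.

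Limb type is set early by a small group of transcription factors. Tbx5 is needed for the forelimb bud to start, Isl1 and Tbx4 act in the starting of the hindlimb bud, and Pitx1, a homeodomain factor made in the hindlimb and not the forelimb, gives the bud its hindlimb character and raises Tbx4. Genes of the Hox clusters mark position along the body, and Hoxc10 is made in hindlimb and not forelimb mesenchyme. Factors of the PITX family bind the word GGATTA, read as TAATCC on the other strand, which is also bound by other homeodomain factors of the same class, and T-box factors such as Tbx5 and Tbx4 bind AGGTGT, which reads ACACCT on the other strand.

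The lists held between 32247 and 48385 summits, and each was cut to its 30000 highest by the deposited score, so that a rank of 1 is the strongest summit of a library. The FL EYFP+ lists of pools 748, 753 and 758 held 37213, 46045 and 48385 summits, and the HL EYFP+ lists held 32247, 41285 and 34363, in the same order of pools, which is kept for all values below. At rank 30000 the score, the −log10 q of the peak caller, was 4.29, 5.81 and 9.80 in FL EYFP+ and 2.11, 4.60 and 4.25 in HL EYFP+, so the FL library of pool 758 was cut at the highest score. Read depth is unknown, and the score was used only to order summits within a library. Libraries of the same pool shared more of their called intervals (Jaccard index 0.589, 0.631 and 0.682) than libraries that differed in both limb and pool (0.529 to 0.586), and about as much as libraries of the same limb from different pools (0.561 to 0.652, median 0.601).

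Regions that separated the limbs in all pools were few and lay mostly away from gene starts. Summits were gathered into 40531 intervals of 200 bp called in at least 2 of the 6 libraries, an interval being called in a library with a summit within 200 bp of its centre. All 6 libraries called 12562 of these intervals, all 3 FL EYFP+ and no HL EYFP+ library called 568 (1.4%), and all 3 HL EYFP+ and no FL EYFP+ library called 461 (1.14%). These are called FL-only and HL-only intervals. With the further condition that the whole, uncut lists of the other limb held no summit there, 416 FL-only (1.03%) and 194 HL-only (0.479%) intervals were left. Within 1 kb of an annotated gene start lay 12.3% of the FL-only and 19.5% of the HL-only intervals, against 39.1% of all intervals. Introns held 40.7% of the FL-only and 40.3% of the HL-only intervals (28.9% of all). The set of all intervals includes the 12562 called in every library, which the rule keeps out of the FL-only and HL-only intervals. These shares were not counted for other intervals called in only some libraries. The HL count was larger than the FL count in the 10000 highest summits (147 and 110), so the order of the 2 counts depends on the list length.

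Some members had a summit of the other limb close by. No such neighbour within 1 kb was found for 431 of the FL-only and 326 of the HL-only intervals. Of the intervals with no summit in the whole lists of the other limb, 308 FL-only and 116 HL-only intervals also had no neighbour within 1 kb, and these are called isolated.

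The sequences of 9 isolated intervals are given because the results below turn on short words in such sequences. They are the 3 FL-only and 3 HL-only isolated intervals away from gene starts with the highest mean rank score. Then come an FL-only interval in Sox5, an HL-only interval near Meis1 and an HL-only interval between Hoxc11 and Hoxc10. All 9 were chosen after their values were seen. Each is named by the protein-coding gene with the nearest start and written 5′ to 3′ on the plus strand of the reference genome (GRCm38.p6, the mm10 build), with the PITX word and the T-box word, on either strand, in capitals.
FL-only, between genes near Rgs3, chr4:62764085-62764284: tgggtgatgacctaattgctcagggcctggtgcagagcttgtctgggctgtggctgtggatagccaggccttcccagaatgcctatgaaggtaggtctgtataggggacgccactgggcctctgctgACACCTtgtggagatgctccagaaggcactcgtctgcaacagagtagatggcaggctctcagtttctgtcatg
FL-only, between genes near Medag, chr5:149353150-149353349: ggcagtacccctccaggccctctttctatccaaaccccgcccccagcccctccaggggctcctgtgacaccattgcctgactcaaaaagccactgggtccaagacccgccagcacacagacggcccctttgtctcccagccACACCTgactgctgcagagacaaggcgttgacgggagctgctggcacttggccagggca
FL-only, intron near Cntn5, chr9:10269425-10269624: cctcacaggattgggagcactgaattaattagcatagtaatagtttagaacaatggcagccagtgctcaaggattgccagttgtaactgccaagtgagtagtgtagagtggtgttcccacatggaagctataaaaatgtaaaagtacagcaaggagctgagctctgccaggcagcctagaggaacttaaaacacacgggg
FL-only, intron near Sox5, chr6:144039273-144039472: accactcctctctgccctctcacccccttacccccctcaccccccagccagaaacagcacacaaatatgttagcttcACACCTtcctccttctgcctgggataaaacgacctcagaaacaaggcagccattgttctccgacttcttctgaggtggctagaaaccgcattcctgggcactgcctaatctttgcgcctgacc
HL-only, between genes near Olfm4, chr14:82011355-82011554: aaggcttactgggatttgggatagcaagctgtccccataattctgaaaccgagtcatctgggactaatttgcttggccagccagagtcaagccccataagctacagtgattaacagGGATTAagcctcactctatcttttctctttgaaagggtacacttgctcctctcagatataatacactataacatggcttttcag
HL-only, intron near Lrrc7, chr3:158519411-158519610: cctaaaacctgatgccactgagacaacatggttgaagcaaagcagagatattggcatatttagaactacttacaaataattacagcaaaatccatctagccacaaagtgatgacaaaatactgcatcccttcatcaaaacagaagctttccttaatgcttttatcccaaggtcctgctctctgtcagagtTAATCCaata
HL-only, between genes near Pcdh20, chr14:88537854-88538053: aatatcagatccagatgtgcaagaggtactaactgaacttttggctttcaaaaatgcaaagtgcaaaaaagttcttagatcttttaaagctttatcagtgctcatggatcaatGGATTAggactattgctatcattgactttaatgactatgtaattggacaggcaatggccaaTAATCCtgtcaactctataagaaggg
HL-only, intron near Meis1, chr11:18856174-18856373: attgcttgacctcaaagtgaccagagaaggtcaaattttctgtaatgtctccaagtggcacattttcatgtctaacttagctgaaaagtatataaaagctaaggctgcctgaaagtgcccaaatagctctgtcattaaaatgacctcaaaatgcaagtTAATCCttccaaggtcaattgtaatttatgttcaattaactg
HL-only, between genes near Hoxc11, chr15:102959994-102960193: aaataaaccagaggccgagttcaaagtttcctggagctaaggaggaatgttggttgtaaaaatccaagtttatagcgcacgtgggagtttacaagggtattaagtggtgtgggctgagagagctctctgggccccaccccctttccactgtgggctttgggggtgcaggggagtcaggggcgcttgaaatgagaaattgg

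The 3 leading HL-only intervals among those isolated and away from gene starts each held the PITX word, and the Pcdh20 interval held it on both strands. The Olfm4 interval had ranks 4437, 5307 and 9822 in the HL EYFP+ libraries and carried the word 19 bp from its centre. The nearest coding start was 2011153 bp away, so the gene name serves only as a landmark. The Lrrc7 interval had HL ranks 13904, 3882 and 5128 and carried the word 93 bp from its centre. The Pcdh20 interval had HL ranks 6197, 4758 and 13337 and carried the word 16 bp and 77 bp from its centre. Of all PITX words in distal HL-only intervals 56.2% lay within 50 bp of the centre, beside 54.5% of those in all distal intervals and 13 of 19 in distal FL-only intervals. The Rgs3 and Medag intervals held the T-box word and no PITX word. The Rgs3 interval had FL ranks 5106, 5309 and 8598 and carried the word 30 bp from its centre, and the Medag interval had FL ranks 8016, 7957 and 8081 and carried it 44 bp from its centre. The Cntn5 interval, with FL ranks 2255, 8820 and 16048, and the Hoxc11 interval held neither word. The Sox5 interval, near a gene of cartilage formation, had FL ranks 14782, 21686 and 21115 with the T-box word 20 bp from its centre. The Meis1 interval, near a homeobox gene of the proximal limb, had HL ranks 16904, 17175 and 15317 with the PITX word 61 bp from its centre.

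The PITX word was held by 102 of 461 HL-only intervals (22.1%), by 21 of 568 FL-only intervals (3.70%) and by 5.09% of all intervals. Among isolated intervals the shares were 46 of 116 HL-only (39.7%) and 10 of 308 FL-only (3.25%). The T-box word had the opposite order, with 90 FL-only intervals (15.8%), 34 HL-only intervals (7.38%) and 8.20% of all, and among isolated intervals 58 FL-only (18.8%) and 7 HL-only (6.03%). It was not alone in this. CAGCTG was in 25.7% of the FL-only, 11.7% of the HL-only and 15.9% of all intervals, and CACCTG in 20.4%, 9.76% and 12.7%. A GATA word, AGATAA, bound by the GATA zinc finger factors, was in 11.7% of the HL-only and 3.70% of the FL-only intervals and in 4.90% of all. The search took both strands and the whole 200 bp. Both groups were chosen on the summits of the same libraries, and neighbouring intervals can share sequence, so these shares are given with no test. A match is a run of letters in the window and says nothing of whether a factor was bound there. Over all 24677 distal intervals, 10.0% scored higher in HL and 11.3% higher in FL in all 3 pools. Among the 1651 that held the PITX word these shares were 19.3% and 5.75%, and among the 2452 that held the T-box word 6.97% and 15.8%.

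**Figure D1:**
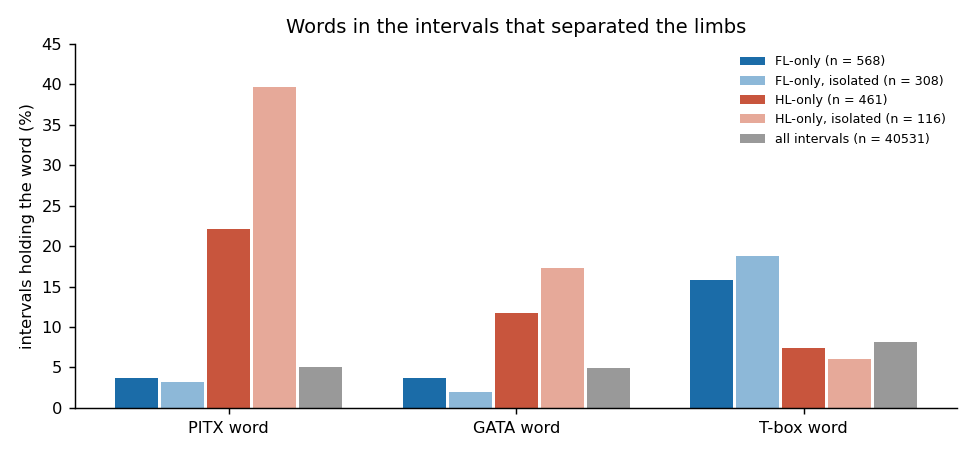
Percent of intervals holding the PITX, GATA or T-box word (y axis) among FL-only, HL-only, isolated FL-only, isolated HL-only and all intervals. The bars for the PITX word run from 3.25% in isolated FL-only to 39.7% in isolated HL-only intervals, while the T-box bars are highest in the FL-only groups.

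The PITX word also stood out when the libraries were compared as replicates over all words of 6 bases, a word and its other strand counted as 1. The summit lists were those used above, so this result is not independent of the shares among the intervals. For each library, the percent of its distal summits (over 1 kb from any gene start, 16790 to 17874 per library) that held a word within 100 bp was taken. The PITX word was found at 5.47%, 5.50% and 5.35% of the FL EYFP+ distal summits and at 7.94%, 7.58% and 7.91% of those of HL EYFP+. The lowest HL library stood well above the highest FL library. The mean was 5.44% ± 0.0768 (SD, n = 3) in FL and 7.81% ± 0.199 (SD, n = 3) in HL, a 1.44-fold higher share in HL, with a log2 difference, FL minus HL, of -0.52 (SE 0.043). With limma across all words and Benjamini-Hochberg adjustment it was the only word that passed 0.05 (adjusted p = 0.0115), so that 1 word was called higher in HL (0.0481% of words) and 0 higher in FL (0%). With the pool as a block its adjusted p was 0.0052, 73 words were called higher in HL (3.51%) and 20 higher in FL (0.962%). Without any 1 of the 6 libraries in turn the log2 difference stayed between -0.54 and -0.51 but the adjusted p lay between 0.0501 and 0.12, so the word did not pass with 5 libraries, and without both libraries of pool 758 it was 0.132.

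The GATA word followed in order of p. It was at 5.49%, 6.03% and 5.55% of the FL distal summits and at 7.55%, 7.66% and 7.63% of those of HL, and the groups did not overlap. Its adjusted p was 0.069 in the fit without the block, 0.0116 with the block, 0.0102 with GC content as a covariate and 0.0147 when the word was sought within 50 bp of the summit, so it passed in the last 3 and not in the first. It did not pass at any other list length (adjusted p up to 0.55), with all summits, without pool 758 or when 1 library was left out (0.12 to 0.683), with the direction kept throughout (log2 difference -0.42, SE 0.0304 with the block). Of the 48 words that contain GATA or TATC, a grouping made after the values were seen, 43 were higher in HL in the mean, beside 957 of all words (1123 were higher in FL).

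Words higher in FL EYFP+ differed by less, and none was called in the fit without block or covariate. With GC content as a covariate 5 words were called higher in FL, CACCTG (adjusted p = 0.0201) and CAGCTG (0.0442) among them. The T-box word was at 10.9%, 10.0% and 10.8% of the FL and 9.34%, 9.00% and 8.87% of the HL distal summits, 1.17-fold higher in FL, with an adjusted p of 0.43 without the block and 0.0322 with it. CACCTG, an E-box bound by basic helix-loop-helix and SNAI/ZEB factors, led the FL side with 14.9%, 14.7% and 15.5% against 12.8%, 12.4% and 12.3% (adjusted p = 0.232, and 0.0215 with the block). Its other strand, CAGGTG, shares the letters AGGTG with the T-box word, so a single site can hold both. CAGCTG, the E-box of the myogenic factors, was at 19.9%, 19.3% and 20.5% in FL and 16.4%, 17.5% and 18.3% in HL (adjusted p = 0.655, and 0.0418 with the block). Percents of FL and HL did not overlap for 7.07% of all words higher in FL and for 5.77% higher in HL, so separation alone is common in 3 against 3 libraries.

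**Figure D2:**
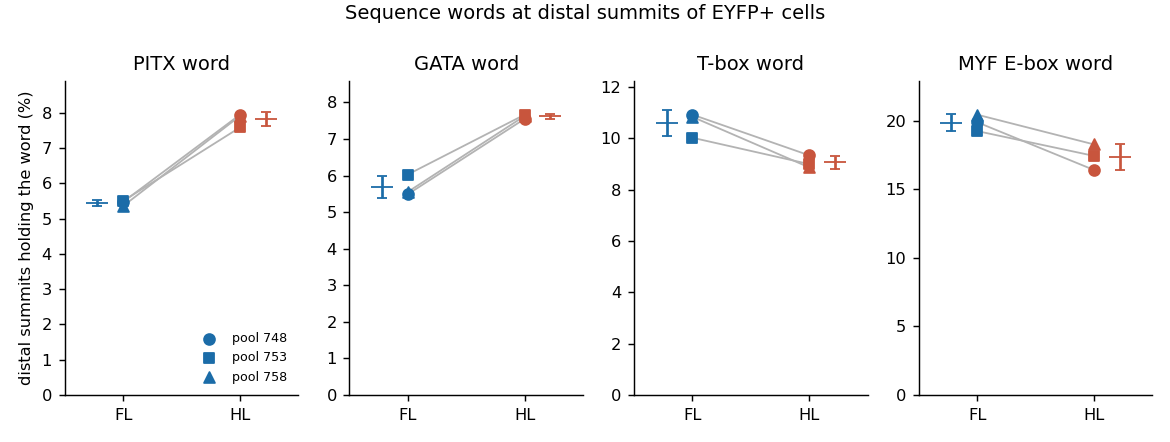
Percent of distal summits holding each of 4 words (y axis, from 0) in FL and HL EYFP+ libraries. Points are libraries, grey lines join libraries of 1 pool, and bars beside them are the mean and SD of 3. The PITX word lies at 5.35% to 5.50% in FL and 7.58% to 7.94% in HL, and the T-box word falls from FL to HL in each pool.

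The remaining words of limb and patterning factors gave no call with or without the block. The TCF word CTTTGA, read by the nuclear effectors of WNT signalling, was at 16.03%, 15.7% and 15.7% in FL and 17.1%, 17.4% and 16.9% in HL (adjusted p = 0.82, and 0.0508 with the block). The HOX word TTTATG, bound by the Hox proteins of the posterior groups, was at 17.6%, 15.3% and 15.96% in FL and 18.1%, 16.7% and 16.8% in HL (adjusted p = 0.997, and 0.109 with the block), higher in HL in each pool but with overlapping groups. The ETS word AGGAAG, the core bound by ETV2 and its family, was at 23.6%, 23.7% and 23.7% in FL and 24.3%, 23.9% and 24.2% in HL, a 1.02-fold difference (adjusted p = 0.997, and 0.415 with the block). The words of MEIS, PBX, ISL1, GLI, SOX and AP-1 factors overlapped between the limbs. The CATCTG E-box of HAND2 and TWIST factors was at 26.7%, 26.03% and 25.8% in FL and 23.2%, 24.6% and 24.7% in HL (adjusted p = 0.869, and 0.0857 with the block).

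Around the distal summits the PITX word differed between the limbs mainly at the centre. Counted in bins of 20 bp, it was in a mean of 0.575%, 0.586% and 0.567% of FL summits per bin within 100 bp of the summit, and in 0.855%, 0.812% and 0.852% of HL summits. Beyond 400 bp the values were 0.730%, 0.757% and 0.744% in FL and 0.708%, 0.733% and 0.737% in HL, slightly higher in FL in each pool. The ratio of centre to flank was therefore below 1 in all FL libraries (0.788, 0.775 and 0.761) and above 1 in all HL libraries (1.21, 1.11 and 1.16). For the T-box word the ratio was 1.11, 1.00 and 1.03 in FL and 0.969, 0.882 and 0.816 in HL. The GATA word was below its flanking level in both limbs, with ratios of 0.409 to 0.469 in FL and 0.588 to 0.648 in HL.

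**Figure D3:**
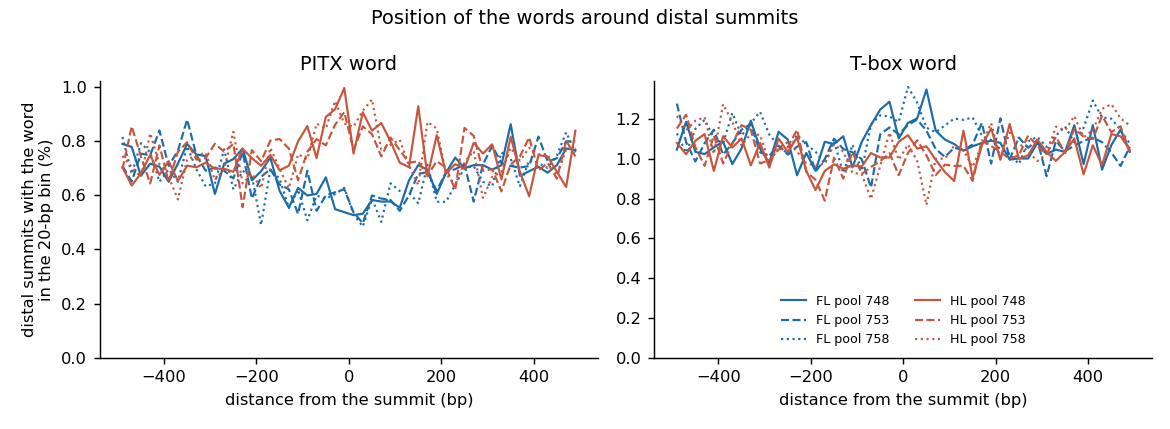
Percent of distal summits with the PITX word (left) or T-box word (right) in each 20-bp bin (y axis) against distance from the summit in bp (x axis), 1 line per library. Within 100 bp of the summit the PITX lines of HL (mean 0.812% to 0.855%) lie above those of FL (0.567% to 0.586%), and beyond 400 bp they run together.

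Among the marker genes, the Tbx4 start was among the 30000 in 3 HL and 0 FL libraries, and the Pitx1 start in 2 HL and 0 FL libraries. The Tbx5 start was among them in 1 library of each limb. Within 1 kb of a Tbx4 start, the highest summit had ranks 24368, 15599 and 6043 in HL EYFP+, and the FL libraries had none except pool 758 at rank 30271, just outside the 30000. Of the 11 intervals in Tbx4 or within 50 kb of it, 0 were HL-only by the rule for intervals. At the start of Pitx1 the HL ranks were 21991, 32106 and 17889, and the FL libraries had none except pool 758 at rank 43148. At Hoxc10 the ranks were 14538, 18366 and 8572 in HL, and 15971 and 20239 in FL pools 753 and 758, with none in FL pool 748. The Tbx5 start was listed only in pool 758, at rank 27171 in FL and 22575 in HL. The starts of Tbx4 and Pitx1 were thus outside the 30000 highest summits of every FL library, although the Pitx1 start was also outside them in HL pool 753. The start of Tbx5 did not divide the libraries by limb. Other starts showed like patterns. That of Osr1 was among the 30000 in 3 HL and 0 FL libraries. Those of Tbx2, Shox2, Meis2, Hoxd4, Hoxb13, Tbx6 and Nkx3-2 were among them in 2 HL and 0 FL libraries. The start of Fli1 was among them in 2 FL and 0 HL libraries. The share of all gene starts with such patterns was not counted. The closest sign near Tbx5 was an interval 39067 bp from its start (chr5:119795496-119795695), with ranks 21007 and 8478 in FL pools 753 and 758 and no summit in FL pool 748 or in any HL list.

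Across windows around limb identity genes and over the Hox clusters, HL EYFP+ held more summits. Of 12 windows, 8 had more of the 30000 summits in HL than in FL in every pool and none had more in FL in every pool. Of the windows of all 21911 protein-coding genes with 50 kb on each side, 3.7% had more summits in HL in every pool and 2.67% had more in FL, while 3 of the 7 chosen windows of that kind (Tbx4, Shox2 and Prrx1) had more in HL. The Pitx1 and Hox windows were cut otherwise and have no such background. The 12 windows were chosen with earlier results known. The window of Pitx1 with 300 kb on each side held 5, 9 and 20 summits in FL and 13, 15 and 25 in HL, so that HL was higher in each pool while the groups overlapped. HoxC, whose genes include Hoxc10, held 2, 3 and 8 in FL and 6, 7 and 12 in HL, and HoxD held 1, 2 and 11 against 6, 7 and 14. HoxA held 3, 1 and 13 against 4, 5 and 18, and HoxB 0, 1 and 7 against 2, 3 and 14. Both libraries of pool 758 thus held more Hox summits than any library of the other pools. Without pool 758, 9 windows had more summits in HL in both pools left.

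With 50 kb on each side, the Tbx4 window held 4, 4 and 9 summits in FL and 5, 6 and 10 in HL. Prrx1, a homeobox gene of limb mesenchyme, had 5, 4 and 6 against 9, 6 and 8, and Shox2, which acts in the proximal limb, had 2, 2 and 2 against 4, 3 and 3. Isl1 had 4, 2 and 1 against 4, 5 and 5. Tbx5 ran the other way with 0, 1 and 3 in FL against 0, 0 and 1 in HL, and Hand2 (7, 7 and 6 against 6, 7 and 7) and Fgf10 (10, 9 and 8 against 11, 11 and 7) had no common direction. The two-sided exact permutation test, whose smallest p for 3 against 3 is 0.1, gave 0.1 for Shox2 and 0.2 to 1 for the others, with adjusted p from 0.667 to 1 over the 12 windows. In the uncut lists, of which the FL lists were the longer in each pool, only 1 window had more summits in HL in every pool, and in the 10000 highest summits also 1. The Tbx5 window had more summits in FL in every pool in the uncut lists (1, 3 and 8 against 0, 0 and 2). The direction for Shox2 depended on the list length, with a mean difference, HL minus FL, of 1.33 summits at 30000, 0 at 25000, -0.333 at 20000 and -0.667 at 10000. For Fgf10 the mean difference was 0.667 at 30000, -1 at 20000 and -2 in the uncut lists. For HoxA it went from 3.33 at 30000 to -0.667 in the uncut lists, and for HoxB from 3.67 to 0.

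**Figure D4:**
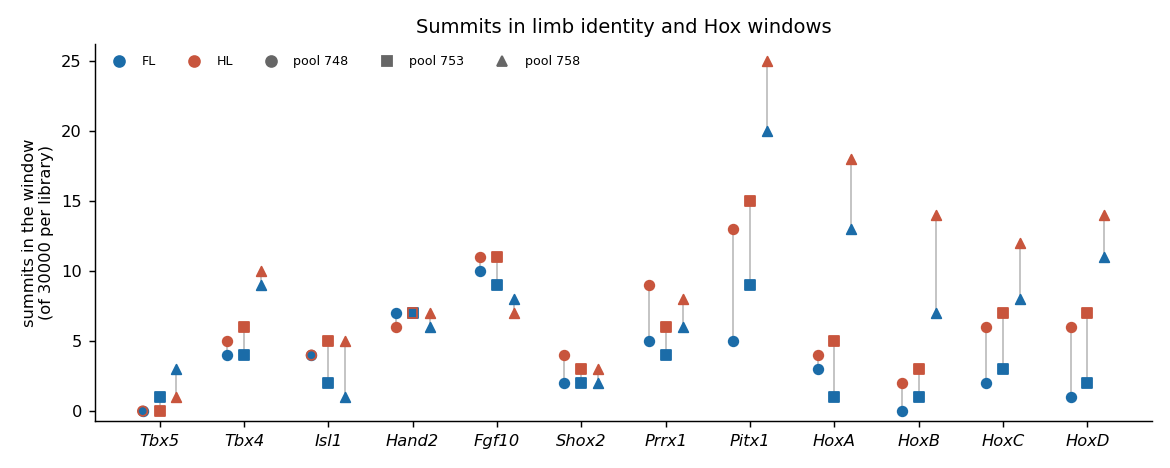
Number of the 30000 highest summits of each library (y axis) in windows around 8 genes and over the 4 Hox clusters (x axis). Blue points are FL, red points are HL, shapes are pools, and grey lines join the limbs of 1 pool. In the Pitx1 window and the 4 Hox clusters the red point lies above the blue in each pool, and pool 758 lies highest.

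Of all 40531 intervals, 21.9% were called in more HL than FL libraries and 25.4% in more FL than HL libraries. Inside most windows more intervals leaned to HL. In the HoxD window 9 of 14 intervals were called in more HL libraries and 1 in more FL libraries, in the Pitx1 window 10 and 2 of 19, in HoxC 7 and 2 of 10, and in Prrx1 6 and 2 of 10. In HoxA the counts were 5 and 2 of 15, in HoxB 3 and 0 of 9, and in Isl1 3 and 0 of 4. The counts were nearer in the Tbx4 window (4 and 3 of 11) and equal in the Fgf10 (2 and 2 of 12), Hand2 (1 and 1 of 8) and Shox2 (1 and 1 of 3) windows, and the 1 interval of the Tbx5 window leaned to FL. The sites described next were chosen after their values were seen. The HL-only interval between Hoxc11 and Hoxc10 (chr15:102959994-102960193), 5667 bp from a Hoxc11 start, had ranks 16554, 19853 and 10396 in HL and no summit in any whole FL list. At the Hoxc4 start (chr15:103035167-103035366) the HL ranks were 19196, 16862 and 9042, and the FL libraries had a summit within 1 kb of the start at ranks 30645, 33195 and 15234, of which only that of pool 758 was among the 30000. An intronic interval near Catsper3 within the Pitx1 window (chr13:55775121-55775320) had HL ranks 24319, 27289 and 9882 and FL pool 758 at 16879. An intronic interval near Pcbd2 in the same window (chr13:55754519-55754718), which holds the PITX word, had HL ranks 25312, 29285 and 3962 and FL pool 758 at 17123. The FL library of pool 758 was the only FL library with a summit at the Catsper3 and Pcbd2 sites. Fgf10 encodes a growth factor that drives limb outgrowth. An HL-only interval 89829 bp from its start (chr13:118624770-118624969), in an intron of another annotated transcript, had HL ranks 7697, 24327 and 20652, and FL ranks of 33160 and 46610 in pools 753 and 758.

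Summed over the intervals nearest to each gene, no gene passed the test. Each interval was given to the protein-coding gene with the nearest start within 250 kb, and the rank scores (1 for the highest summit, 0 for none) were summed for 14775 genes and compared by limma as log2(sum + 0.5). It called 0 genes higher in FL (0%) and 0 in HL (0%), with 305 and 303 genes at an unadjusted p under 0.05, and 0 and 0 with the pool as a block (600 and 616). The test of single intervals likewise called 0 of 40531 in each direction (0%), with 1180 and 1257 at an unadjusted p under 0.05. This even balance depended on the cut. In the whole lists, longer for FL in each pool, limma gave 864 genes higher in FL and 74 in HL at an unadjusted p under 0.05, and 3206 and 738 intervals. In simulated data this interval test recovered 0 of 200 intervals shifted by 0.9 of the rank score, so a count of 0 does not show that intervals were alike.

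The summed scores of Tbx4 were 1.32, 1.54 and 2.98 in FL and 2.60, 3.48 and 4.79 in HL, a log2 difference of -0.78 (SE 0.321, limma adjusted p = 1.00). Hoxc4 had 0, 0.00267 and 1.26 in FL and 1.00, 1.82 and 2.73 in HL (log2 difference -1.56, SE 0.59, limma adjusted p = 1.00). Hoxc11 had 0 in all FL libraries and 0.448, 0.338 and 0.654 in HL (log2 difference on the log2(sum + 0.5) scale -0.96, SE 0.137, limma adjusted p = 0.348). Hand2, which acts upstream of Shh in the posterior bud, had 4.14, 3.77 and 4.68 in FL and 6.13, 5.63 and 6.14 in HL (log2 difference -0.47, limma adjusted p = 0.659). Ptch1, the receptor and target of Hedgehog signalling, had 2.78, 1.87 and 1.88 in FL and 1.38, 1.15 and 1.56 in HL (0.51, limma adjusted p = 1.00). The intervals nearest to Etv2 summed to 0.678, 0.493 and 0.454 in FL and 0, 0.409 and 0.332 in HL. This was higher in FL in each pool (0.52, SE 0.255, limma adjusted p = 1.00). The Etv2 start went the other way. It was in no FL list and in only 1 HL list, that of the last pool, at rank 22559. The libraries also carry the transgene with a fragment of the Etv2 promoter, and its part in these values was not tested.

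Described as lists, hindlimb genes leaned to HL, as did several other limb lists and, in the median, those of somite and muscle progenitor genes. A gene's summed score was higher in HL in all 3 pools for 14.5% of all genes and higher in FL for 14.2%. Of 13 measured genes of the hindlimb field, 6 were higher in HL in all pools (Tbx4, Pitx1, Isl1, Hoxc11 and Gdf11 among them) and 0 in FL, with a median log2 difference of -0.30 beside -0.000318 over all genes. Of 13 measured genes of the forelimb field, 5 were higher in HL (Sall4, Hoxc4, Tbx15, Meis1 and Meis2) and 0 in FL (median -0.09), so the forelimb list did not lean to FL. Of 26 genes of limb mesenchyme, 9 were higher in HL, Prrx1 and Msx1 among them, and 2 in FL, Twist2 and Lhx2 (median -0.14). Among 10 anterior genes 5 were higher in HL and 2 in FL, and among 16 genes linked to limb identity 5 and 2. Among 18 measured genes of the posterior limb and Hedgehog pathway, 3 were higher in HL (Hand2, Gli1 and Sall1) and 2 in FL (Ptch1 and Gli2). For the Hox clusters the counts higher in HL were 1 of 8 in HoxA, 1 of 7 in HoxB, 3 of 7 in HoxC and 0 of 7 in HoxD, with none higher in FL, and Evx1, which lies beside HoxA, was counted with it. Among the lists of other cell types, the median was -0.28 for somite genes and -0.19 for muscle progenitor genes. Of these genes, 0 and 1 were higher in HL in all pools, and 1 and 0 in FL. The medians of the remaining cell type lists lay between -0.08 (endothelial) and 0.06 (blood). None of these genes was called by limma.

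Of the 1079 intervals nearest to a gene of these lists or of the cell type markers, 15 were FL-only (1.39%, at 12 genes) and 21 were HL-only (1.95%, at 20 genes), beside 1.4% and 1.14% of all intervals. On the FL side, 2 of these lay near Meis1, 3 near Sox9, which drives cartilage formation, and the rest near Gli2, Sox5, Twist2, Tbx18, Shox2, Emx2, Evx1, Rgma and the marker genes of other tissues Nr2f2 and Trp63. On the HL side they included intervals near Tbx4, Hoxc11, Meis1, Fgf10, Foxp1, Irx3, Irx5, Asb4, Evx1, Tbx18, Sox5, Sox6, Rarb and the marker genes of other tissues Des, Emcn, Pecam1, Meox2 and Uncx. The HL-only interval of Tbx4 lay 93344 bp from its start (chr11:85990009-85990208), with HL ranks 19619, 16625 and 17340 and FL ranks of 43609 and 36322 in pools 753 and 758. Meis1, Sox5, Tbx18 and Evx1 had intervals of both kinds. Of the 21 HL-only intervals 4 held the PITX word, those near Asb4, Meis1, Sox6 and Uncx, and of the 15 FL-only intervals none held it.

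The 10 genes with the smallest p in each direction had few intervals. On the HL side they were Xkr9, Gys2, A730046J19Rik, Zfp473, Muc16, Isoc1, Lgi1, Gm10203, Serpinb11 and Chrna6, and on the FL side Mcm7, Best3, Apobec2, Tnfsf18, Aimp1, Srek1ip1, Cc2d2b, CK137956, Srgap2 and Myom1. Xkr9, with 5 intervals, had 0.463, 0.457 and 0.607 in FL and 1.99, 1.90 and 1.82 in HL (log2 difference -1.25, SE 0.0986, limma adjusted p = 0.12). Mcm7, a subunit of the replicative helicase, had 1 interval, at 0.711, 0.870 and 0.916 in FL and 0 in HL (1.41, SE 0.0956, limma adjusted p = 0.12). Its interval lay at the gene start and had an HL summit within 1 kb, and 7 of the 10 intervals of highest rank on each side lay at gene starts. Of the 10 FL-only intervals with the highest mean rank score and no summit in the whole HL lists (near Zbtb2, Sdc2, Mreg, Gm11146, Tmx3, Dapk1, Mcm7, Srek1ip1, Scgb2a2 and Phlda1) all 10 had an HL summit within 1 kb. Of the 10 HL-only intervals chosen in the same way (near Tanc2, Dapk1, Napg, Olfm4, Coa7, Yju2, Scgb2a2, Nradd, Cnksr3 and Lrrc7) 8 had an FL summit within 1 kb, and those near Olfm4 and Lrrc7 did not. Near Dapk1, for instance, the FL interval spans chr13:60410160-60410359 (ranks 5289, 5890 and 3927) and the HL interval chr13:60409848-60410047 (ranks 4784, 6969 and 4764).

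Starts of mesenchyme markers were listed in both limbs, and the starts of markers of other cell types were listed in part. Of 8 mesenchyme markers the starts of 6, 6 and 7 were listed among the 30000 summits in FL and 7, 7 and 6 in HL. For endothelial genes the starts of 4, 5 and 6 of 14 were listed in FL and the same numbers in HL, and those of Cdh5, Pecam1 and Emcn in no list. The starts of the endothelial receptor genes Kdr (ranks 11839 to 14901) and Flt4 (5435 to 16817) were listed in all 6 libraries, and that of Egfl7 in all but HL pool 748. The summed scores of the 13 endothelial genes with intervals were 12.5, 11.2 and 8.83 in FL and 12.7, 11.3 and 10.21 in HL, with Fli1 the highest. Of 8 blood genes the starts of 0, 0 and 1 were listed in FL and 1, 1 and 1 in HL, with summed scores of 4.14, 4.10 and 6.57 against 5.24, 4.50 and 5.92 (3 measured, Runx1 the highest), and the starts of Gata1, Klf1, Spi1, Ptprc and the globin genes Hbb-bt and Hba-a1 were in no list. Klf1 and Ptprc still had intervals farther from their starts, with summed scores for Ptprc of 1.98, 1.92 and 1.36 in FL and 2.30, 1.79 and 0.916 in HL. Muscle progenitor genes summed to 2.33, 1.94 and 4.45 in FL and 2.71, 2.98 and 4.69 in HL (7 of 8 measured, Pax3 the highest), with starts listed for 1, 1 and 1 and for 3, 1 and 2. Ectoderm genes summed to 12.4, 10.8 and 11.2 against 11.9, 11.6 and 12.1 (9 of 11, Sp8 the highest), with starts listed for 3, 1 and 1 of 11 genes in FL and 2, 2 and 3 in HL. The start of Tfap2c was listed in all 6 libraries and that of Sp8 in all HL libraries and in FL pool 748, while those of Trp63, Krt5, Krt8 and Fgf8 were in no list. Neuron genes summed to 6.93, 6.39 and 2.84 against 6.44, 6.36 and 3.22, with pool 758 lowest in both limbs, and neural crest genes to 0.867, 1.36 and 0.899 against 0.707, 1.58 and 0.658. Somite genes summed to 6.71, 5.44 and 5.39 against 6.22, 6.56 and 7.02, with starts listed for 1, 1 and 2 of 7 genes in FL and 3, 4 and 3 in HL. Over all 21938 protein-coding genes the starts of 52.6%, 54.2% and 54.7% were listed in FL and 51.8%, 55.6% and 57.0% in HL. Coelomic and nephric genes summed to 8.31, 5.68 and 9.90 against 7.43, 7.39 and 11.96. In bulk samples fewer cells of a type and less accessible DNA per cell cannot be told apart. The part of these cells in the differences above was not tested.

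The separating intervals were not confined to the 6 libraries. In the other 26 libraries of the series, from control, Etv2-deleted and Etv2-overexpressing embryos, FL-only intervals had a summit in a median of 11 libraries and HL-only intervals also in 11, beside 16 for all intervals. In none of them were 24 FL-only (4.23%) and 8 HL-only (1.74%) intervals, beside 608 of all intervals (1.5%). The study describes these libraries as hindlimb cells or tissue, while the labels give the limb only for some. The labels give the WT_Control and Etv2_OE libraries as E10.5, while the study's methods describe a later harvest for the overexpression experiment in general, so their stage is uncertain. The libraries split by experiment. In the 8 WT_Control libraries (control embryos of the overexpression experiment) 62.9% to 73.2% of the FL-only but 39.9% to 46.2% of the HL-only intervals were listed. In the 6 Etv2_OE libraries of that experiment the shares were 50.2% to 62.3% and 29.1% to 41.0%. Of all intervals, 69.2% to 72.9% were listed in WT_Control and 60.8% to 67.6% in Etv2_OE, so the HL-only share lay farther below that of all intervals. In the other 12 libraries the order of the FL-only and HL-only shares was the reverse. The 2 Etv2CKO_posteriorHL libraries, from E10.5 posterior hindlimb with Etv2 deleted, listed 16.2% and 18.3% of the FL-only and 57.5% and 60.3% of the HL-only intervals, beside 51.6% and 55.6% of all. The 2 LimbWT_10_25 libraries, of wild-type limb at E10.25, listed 17.8% and 24.1% against 49.2% and 66.2%, beside 57.6% and 66.3% of all. In these libraries the FL-only share lay farther from that of all intervals. Cut to their 10000 highest summits, again 12 of the 26 lists held a larger share of the HL-only than of the FL-only intervals. The FL-only intervals were thus also listed in libraries not labelled as forelimb, and their name refers to the 6 EYFP+ libraries alone.

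**Figure D5:**
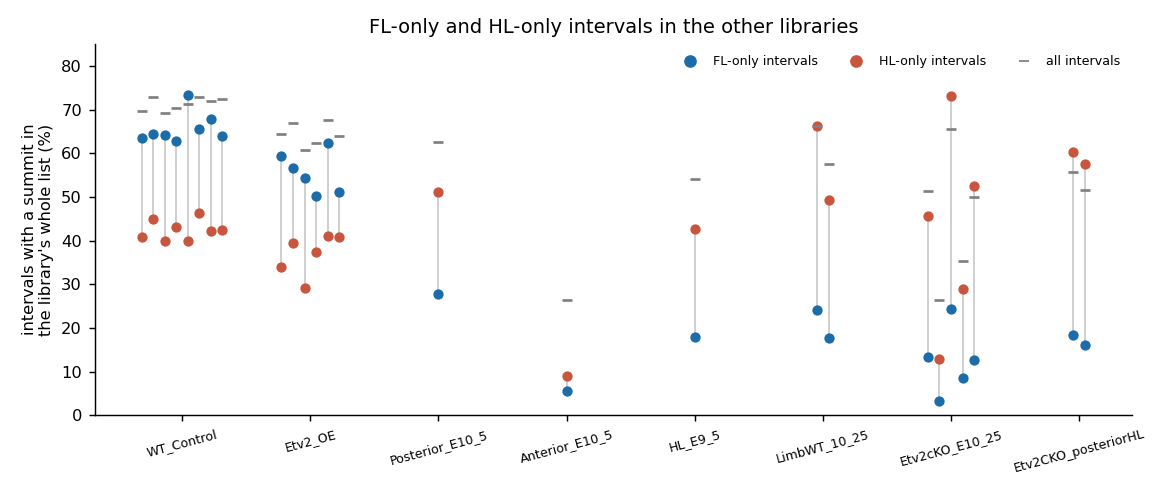
Percent of FL-only (blue), HL-only (red) and all (grey dash) intervals with a summit in the whole list of each of the other 26 libraries (y axis), by label group (x axis), with 1 column of points per library. The FL-only points lie higher in WT_Control and Etv2_OE and the HL-only points in the other 6 groups.

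The PITX word separated the HL from the FL EYFP+ libraries at the shorter list length too, but did not do so for all libraries of hindlimb. Among the distal summits of the 10000 highest, the word was at 4.23% to 4.64% in FL EYFP+ and 7.01% to 7.90% in HL EYFP+. The WT_Control libraries lay between these at 5.87% to 6.71% (n = 8), as did Etv2_OE at 6.42% to 6.93% (n = 6), and the 2 Etv2CKO_posteriorHL libraries at 7.71% and 7.99% lay with HL EYFP+. The 2 LimbWT_10_25 libraries (4.28% and 4.38%) were in the FL range, and their distal summits were richer in G and C (55.4% and 55.6%) than those of FL EYFP+ (49.5% to 52.1%). The word also lay below the HL EYFP+ range in the Anterior_E10_5 (3.89%) and Posterior_E10_5 (4.92%) libraries, in HL_E9_5 (5.77%) and in the 5 Etv2cKO_E10_25 libraries (2.61% to 5.99%, median 4.87%). Their G and C content was likewise mostly higher, at 53.9%, 54.1% and 53.5% in Anterior_E10_5, Posterior_E10_5 and HL_E9_5. It was 51.1% to 57.9% (median 55.6%) in Etv2cKO_E10_25. The T-box word was at 10.17% to 10.9% in FL EYFP+, 8.35% to 9.34% in HL EYFP+ and 9.45% to 10.4% in WT_Control. It was at 8.76% to 10.7% in Etv2_OE, 8.15% and 8.78% in Etv2CKO_posteriorHL, 7.69% to 8.62% in Etv2cKO_E10_25, 7.47% and 7.48% in LimbWT_10_25, 7.79% in Anterior_E10_5, 7.61% in HL_E9_5 and 6.83% in Posterior_E10_5. No test was made across these groups, which differ in stage, genotype and sort.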

How the data were processed

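Summit lists of 6 ATAC-seq libraries (3 FL_GFP_pos, 3 HL_GFP_pos) were analysed, with 26 other lists for description. The authors aligned paired reads to mm10 with Bowtie2 2.2.4 (unique alignments), removed duplicates with Picard, offset reads for the transposase and called summits with MACS2 (version and settings not given in the sources used here). Column 5 as deposited was read as −log10 q (its lowest value is near that of q = 0.05) and used only to rank summits within a list. No read counts were used and depth is unknown.

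Mitochondrial summits were left out and lists cut to 30000. Intervals of 200 bp, called within 200 bp in at least 2 libraries, were annotated with GENCODE M21 basic on GRCm38.p6. A rank score, falling evenly from 1 for the highest summit to near 0 for the lowest and 0 where none was listed, was compared by limma 3.58.1 (R 4.3.3) over intervals, genes (log2 of the sum + 0.5) and 6-base words (log2 percent), two-sided, with Benjamini-Hochberg adjustment at 0.05, and windows by exact permutation. Scripts were tested on simulated data: of 200 changed features the word test recovered 165 at a log2 change of 0.5 and 0 at 0.2 (199 and 168 with the pool as block), and the gene test 191 at 4 and 0 at 1.

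Same-numbered libraries deviated together (correlations 0.21, 0.22 and 0.466 of deviations from the group means), so the numbers pair the libraries, and the fit with the pool as a block is given where it changes a call. What the numbers mark is not stated in the labels. Replicates are separate samples by label, and p-values measure the spread between them. The members, gene lists and words were chosen with earlier results of these data known. Named genes were the 4 markers, list members with a separating interval, the 10 smallest p per direction and the 10 intervals of highest mean rank score per limb. That rule gave no interval near a listed gene for display, so the sequences shown were chosen after their values were seen, as were the 1 kb condition, the single sites in windows and the other list genes given with values.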

Additional observations from a re-analysis of the deposited data

Results flagged for a closer look

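Among 21 sets of values in the other groups of 4 to 10 libraries, 2 libraries lay far from the rest of their group by Dixon's criterion, which flags about 1 set in 20 by chance. Among the Etv2_OE libraries, replicate 5 had the PITX word at 6.93% of its distal summits, the highest of the 6. Among the WT_Control libraries, replicate 1 had the GATA word at 4.17%, the highest of the 8. Groups of 3, as for FL and HL EYFP+, were not examined in this way.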

How the results depend on the processing

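Read depth is unknown and lists were compared by rank, so weak sites near the cut of a list limit every count of separating intervals, and summit position alone separated some of them. The FL-only count was 313 and 110 at 20000 and 10000 summits, 1470 in the whole lists and 2191 without pool 758, and 976 to 1612 when 1 library was left out. The HL-only count was 319 and 147 at 20000 and 10000 summits, 336 in the whole lists, 1949 without pool 758 and 706 to 1278 when 1 library was left out. The whole FL lists are longer than the HL lists of the same pool, and leaving out a library eases the condition itself. The limma calls on intervals became 568 higher in FL and 461 in HL with 0 or 1 for called, where libraries of a group have no spread and the calls equal the FL-only and HL-only intervals, 89 and 21 in the whole lists and 65 and 65 with no filter. For genes they became 8 and 3 with a pseudocount of 0.1 and 2 and 2 with 500-bp intervals. For words they became 20 higher in FL and 73 in HL with the replicate block, 5 and 31 with GC content as a covariate, 0 and 2 within 50 bp of the summit, 0 and 0 without pool 758, and 0 to 0 higher in HL when 1 library was left out. The cause of these changes was not tested. The replicate block changed no call for intervals or genes. Windows with more summits in HL in every pool numbered 1 at 10000 summits and 1 in the whole lists, and 7 to 9 otherwise.

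The PITX, GATA, T-box and CACCTG words kept their direction under all 15 alternatives. None of the words that turned was called. They were AP-1 TGACTC (-0.0099 at 25000 summits, -0.0011 without pool 758), PBX TGATTG (0.0408 at 10000 summits, 0.0056 with all summits, 0.0105 within 50 bp), SOX ACAATG (-0.0817 at 10000 summits) and MEIS TGACAG (0.0062 with all summits, 0.0013 within 50 bp). When 1 library was left out, log2 differences ranged over -0.0097 to 0.0292 for AP-1, -0.042 to 0.0205 for PBX, -0.0017 to 0.0916 for SOX, -0.0617 to 0.0227 for MEIS, -0.118 to 0.0038 for ISL1 and -0.0888 to 0.0393 for GLI. The gene Aimp1 turned with summits within 250 bp (-0.0661).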
